A study of Mus musculus with 3 samples.

Results

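The replication-dependent histone genes of the mouse lie mainly in the Hist1 cluster on chromosome 13 and in the smaller Hist2 cluster on chromosome 3. Open chromatin over both clusters was examined in fat cells grown from 3 depots. The sites were chosen by position alone. A hypersensitive site was taken when its midpoint lay on chromosome 13 between 21700000 and 22150000 (the first Hist1 stretch) or between 23500000 and 23900000 (the second Hist1 stretch), or on chromosome 3 between 95950000 and 96150000 (the Hist2 stretch), all in genome build mm9. These stretches held 290 of the 172496 sites in the 3 lists, with 93 of 60974 in epididymal, 107 of 63214 in inguinal and 90 of 48308 in brown fat cells. Sites that overlapped by at least 1 bp, or touched, were merged into regions. The stretches held 137 of 99297 regions, with 44 in the first Hist1 stretch, 69 in the second and 24 in the Hist2 stretch. The stretches had been singled out in these same data, because windows within them were dense in regions listed for every depot. Site density and the share of regions in all 3 lists are therefore a description, with no test.

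Male NMRI mice aged 4 to 5 weeks gave the stromal-vascular cells, which were turned into fat cells in culture. They came from the epididymal (eWAT) or inguinal (iWAT) white depot or from pooled interscapular, cervical and axillary brown depots (BAT). Every depot received the same medium, with 30 nM insulin, 10% newborn calf serum, ascorbate and 1 µM rosiglitazone, an agonist of the nuclear receptor PPARγ. Cells were taken 8 days after plating, only from cultures that were more than 50% differentiated, and their nuclei were exposed to DNase I at 120 U/ml. Cultures of this kind keep cells that have not become fat cells, and the share of dividing cells per culture is not stated. There was 1 library per depot, so differences between depots have no replicate error and no test. No gene annotation of mm9 was used here. For that reason sites are not tied to single genes, the place of the clusters rests on the stated coordinates, and depot marker genes were not checked.

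Replication-dependent histone genes encode the core histones H2A, H2B, H3 and H4 and the linker histone H1. They are short genes without introns whose messages end in a stem-loop in place of a poly(A) tail, and they are transcribed mainly in S phase, when new DNA must be packed into nucleosomes. The clustered genes gather in a nuclear compartment, the histone locus body, and many H2A and H2B genes form divergent pairs that share a promoter.

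The RefSeq gene table (build GRCm38.p6) was used here only for names, gene order and the distance between gene starts. It listed 54 genes of these families on chromosome 13 and 10 on chromosome 3, of which 52 and 10 were protein-coding. On chromosome 13 they were 5 H1, 15 H2A, 14 H2B, 9 H3 and 11 H4 genes, and on chromosome 3 they were 4 H2A, 2 H2B, 3 H3 and 1 H4 gene. An H2B gene was the immediate neighbour of 14 of the 19 H2A genes. By distance between gene starts, the widest break among the histone genes of chromosome 13 fell between H2bc11 and H4c8. In gene order, 23 histone genes came before this break and 31 after. It held 147 other genes, among them 75 with names of vomeronasal receptors (Vmn1r) and 46 tRNA genes.

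Promoter sequences show what kind of DNA these clusters hold. RefSeq promoters, from 250 bases before to 50 after a start, were at hand for 57 of the 64 genes (58 promoters). They were searched on both strands for the CCAAT box (spelled by its name and bound by NF-Y), the TATA box (letters TATAAA) and the octamer (letters ATTTGCAT, bound by OCT1), none of which contains another. The CCAAT box was present in 50 of the 58 histone promoters (86.2%) against 37.4% of all 32851 promoters. The letters TATAAA were present in 34 (58.6%) against 13.6%, and the octamer in 13 (22.4%) against 1.74%. Every H1, H2A, H2B and H3 promoter of the set held a CCAAT box (5, 17, 15 and 10 promoters), but only 3 of 11 H4 promoters did. The octamer was found in 6 H2A and 7 H2B promoters and in no promoter of the other classes. The letters TATAAA were present in 8 of 11 H4 promoters. Divergent H2A and H2B genes share promoter sequence, so these counts are not independent. Below is the promoter with the most motif kinds and matches in each class, leaving out the testis genes H2ac1 and H2bc1. The run is the 250 bases upstream of the start, 5′ to 3′ on the gene's strand, with matches on either strand in capitals. The build is GRCm38.p6, and H2ac20 is on the minus strand of chromosome 3 while the others are on the plus strand of chromosome 13.
H1f3: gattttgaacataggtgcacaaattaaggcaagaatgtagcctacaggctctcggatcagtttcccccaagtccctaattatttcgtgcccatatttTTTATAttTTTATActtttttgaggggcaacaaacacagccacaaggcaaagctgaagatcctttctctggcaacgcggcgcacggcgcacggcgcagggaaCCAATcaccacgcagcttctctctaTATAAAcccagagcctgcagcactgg
H2ac20: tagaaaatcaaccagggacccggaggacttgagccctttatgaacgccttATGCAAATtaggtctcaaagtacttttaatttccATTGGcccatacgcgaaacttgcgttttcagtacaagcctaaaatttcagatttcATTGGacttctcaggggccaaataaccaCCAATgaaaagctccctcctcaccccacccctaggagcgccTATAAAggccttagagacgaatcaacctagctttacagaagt
H2bc12: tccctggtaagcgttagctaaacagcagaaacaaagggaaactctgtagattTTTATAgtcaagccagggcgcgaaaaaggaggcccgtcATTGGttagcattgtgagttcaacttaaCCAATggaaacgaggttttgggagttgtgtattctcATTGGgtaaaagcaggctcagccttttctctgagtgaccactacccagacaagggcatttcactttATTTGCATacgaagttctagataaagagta
H3c4: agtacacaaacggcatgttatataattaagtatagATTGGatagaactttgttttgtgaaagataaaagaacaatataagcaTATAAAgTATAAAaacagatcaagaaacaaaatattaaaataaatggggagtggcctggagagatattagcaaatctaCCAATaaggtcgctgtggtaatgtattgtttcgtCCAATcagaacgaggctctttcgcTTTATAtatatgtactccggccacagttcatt
H4c4: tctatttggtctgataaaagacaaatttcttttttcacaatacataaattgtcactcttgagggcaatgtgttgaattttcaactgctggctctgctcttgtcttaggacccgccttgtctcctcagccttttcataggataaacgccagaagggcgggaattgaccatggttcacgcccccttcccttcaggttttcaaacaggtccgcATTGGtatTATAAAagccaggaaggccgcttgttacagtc
In these runs H2ac20 and H2bc12 each held 3 CCAAT matches, 1 octamer match and 1 TATAAA match. The TATAAA match of H2bc12 was on the opposite strand. H3c4 held 3 CCAAT and 3 TATAAA matches, H1f3 held 1 and 3, and H4c4 held 1 and 1. A match is a description of the letters, not a bound site. Matches on either strand and at any place in the promoter were counted, so a TATAAA match need not be a TATA box. Because the sites are in mm9 and the promoters in another build, they were not overlaid.

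The histone stretches were dense in open sites in every depot. Taking the depots in the order eWAT, iWAT and BAT, they held 8.86, 10.2 and 8.57 sites per 100 kb, against 2.37, 2.46 and 1.88 over the chromosomes as a whole, which is 3.73, 4.14 and 4.56 times the density. The second Hist1 stretch was the densest, with 10.8, 13.8 and 10.8 sites per 100 kb (43, 55 and 43 sites). The Hist2 stretch held 9.5, 9 and 7 per 100 kb (19, 18 and 14 sites) and the first Hist1 stretch 6.89, 7.56 and 7.33 (31, 34 and 33 sites). In the second Hist1 stretch iWAT listed the most sites, and in the Hist2 stretch BAT listed the fewest. The BAT list is also the shortest of the 3. Relative to the length of each list the order turned: the stretches held 0.153%, 0.169% and 0.186% of all sites in the order of depots above, and 0.249%, 0.265% and 0.280% of all tags in listed sites. Whether these shares differ beyond the spread between cultures was not tested, with 1 library per depot.

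Between the 2 Hist1 stretches, chromosome 13 was sparse in sites. Its 1350 kb held 9 eWAT, 12 iWAT and 8 BAT sites, or 0.667, 0.889 and 0.593 per 100 kb, which is 0.281, 0.361 and 0.315 times the density over the chromosomes. These sites formed 16 regions, of which 6 were listed in all 3 depots. Every depot thus showed the same change from dense to sparse and back along the cluster. Open sites did not end at the chosen bounds: the region just before the second Hist1 stretch, 6.55 kb outside it, held 35.7, 49.3 and 36.0 normalised tags in eWAT, iWAT and BAT, while the region just inside, 4.61 kb from the bound, held 23.2, 29.6 and 18.0. At the end of the first Hist1 stretch the last region inside held 20.8, 33.5 and 23.1, and the next one outside was listed only in eWAT with 6.54. At the end of the second Hist1 stretch a region inside (9.52 in eWAT and 11.8 in iWAT) and one outside (6.54 and 11.8) were both absent from the BAT list.

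Within the stretches the sites came in clumps. The first Hist1 stretch had a gap of 91.1 kb from 21710867 to 21801946 and one of 67.6 kb from 21879387 to 21947019, whereas the widest gap was 28.4 kb in the second Hist1 stretch and 21.6 kb in the Hist2 stretch. Another region lay within 1 kb of 76 of the 137 regions (55.5%), against 35.7% of all regions, and the median distance to the nearest region was 873 bp against 2844 bp. Many sites formed pairs less than 1 kb apart that recurred in each depot, such as those at 21947019 to 21947276 and 21947589 to 21947925. The first of that pair held 19.0, 25.6 and 21.4 normalised tags in the order eWAT, iWAT and BAT, and the second held 14.9, 20.7 and 18.8.

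**Figure D1:**
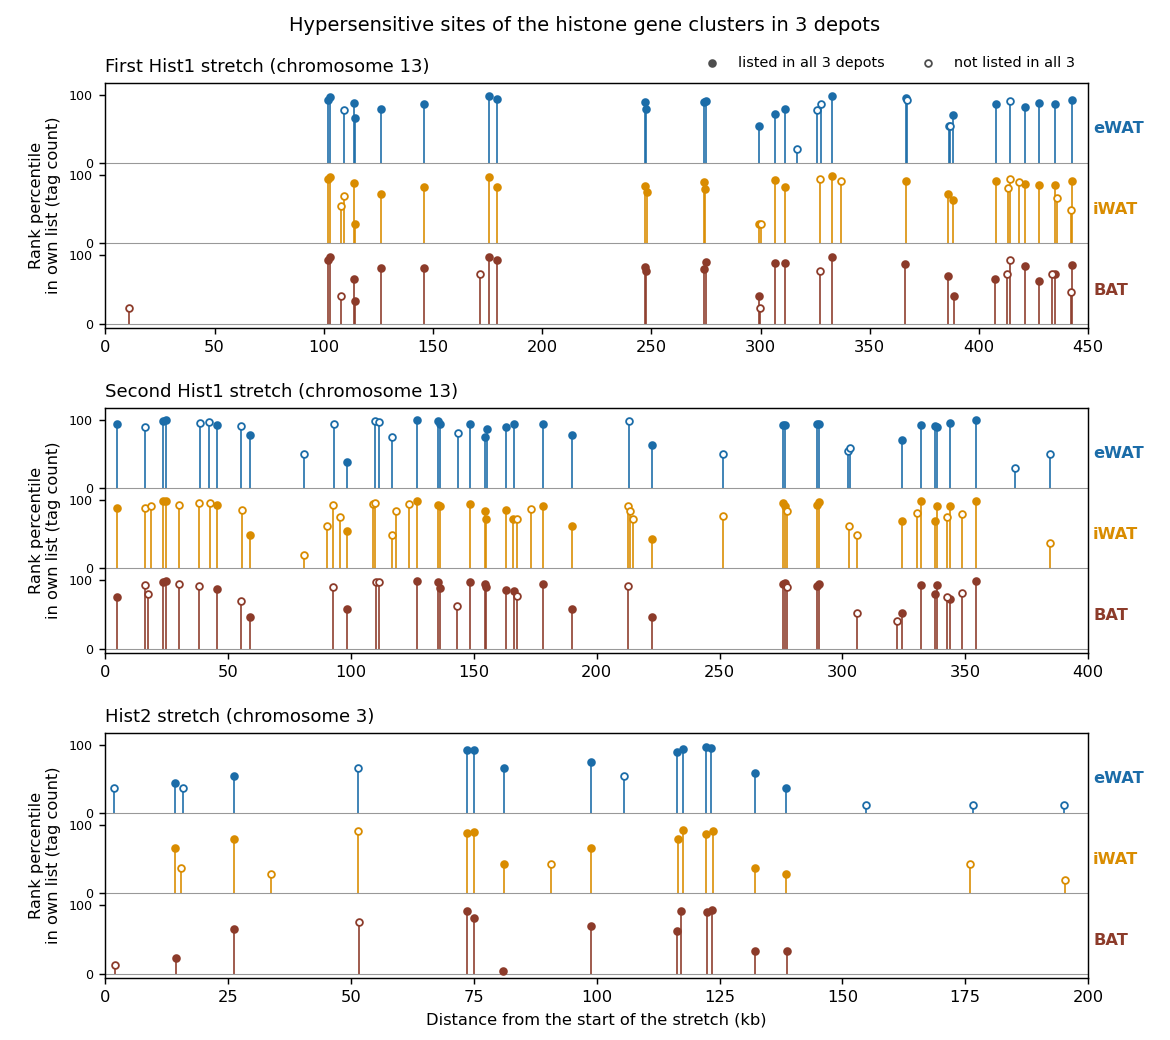
Each vertical line is a site at its distance in kb from the start of the stretch, and its height is the site's rank percentile by tag count in its own list (0 to 100, 100 being the site with the most tags). Filled heads mark sites listed in all 3 depots and open heads the others; the depots show similar clumps and gaps and mostly high ranks, with 63 filled heads in each depot.

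Of the 137 regions, 63 (46.0%, exact 95% interval 37.4 to 54.7) were listed in all 3 depots, against 25.2% of all regions. A further 27 (19.7%) were in exactly 2 lists, against 23.3%, and 47 (34.3%, 26.4 to 42.9) in a single list, against 51.5%. The share in all 3 lists was 24 of 44 (54.5%) in the first Hist1 stretch, 27 of 69 (39.1%) in the second and 12 of 24 (50.0%) in the Hist2 stretch, and their intervals overlapped (38.8 to 69.6, 27.6 to 51.6 and 29.1 to 70.9). These intervals cover counting error only, and neighbouring regions are not independent. Without the 2 windows of 100 kb that held the most common regions (chromosome 13 from 23600001 to 23700000 and chromosome 3 from 96000001 to 96100000), 43 of 102 regions (42.2%) were in all 3 lists. Of the 12 grid windows of 100 kb with a region of the stretches, 9 held at least 5 common regions, against 4.10% of all windows with a site. The stretches were singled out for windows dense in common regions. This count and the shares above therefore describe that choice and are no test of it.

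Seen from each list, 63 of 93 eWAT sites (67.7%) were in a region of all 3 lists, against 41.0% of all eWAT sites. In iWAT the share was 63 of 107 (58.9%) against 39.6%, and in BAT 63 of 90 (70.0%) against 51.8%. Sites listed in no other depot numbered 16 in eWAT (17.2% against 32.0%), 22 in iWAT (20.6% against 32.1%) and 9 in BAT (10.0% against 23.5%). Among the regions in exactly 2 lists, 13 were in iWAT and BAT, 9 in eWAT and iWAT and 5 in eWAT and BAT. Over all regions the white pair of eWAT and iWAT was the most frequent (11.3% of regions, against 6.73% for iWAT and BAT). In the stretches these shares were 6.57% (3.05 to 12.1) and 9.49% (5.15 to 15.7), so the order of the pairs was not resolved at these counts.

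**Figure D2:**
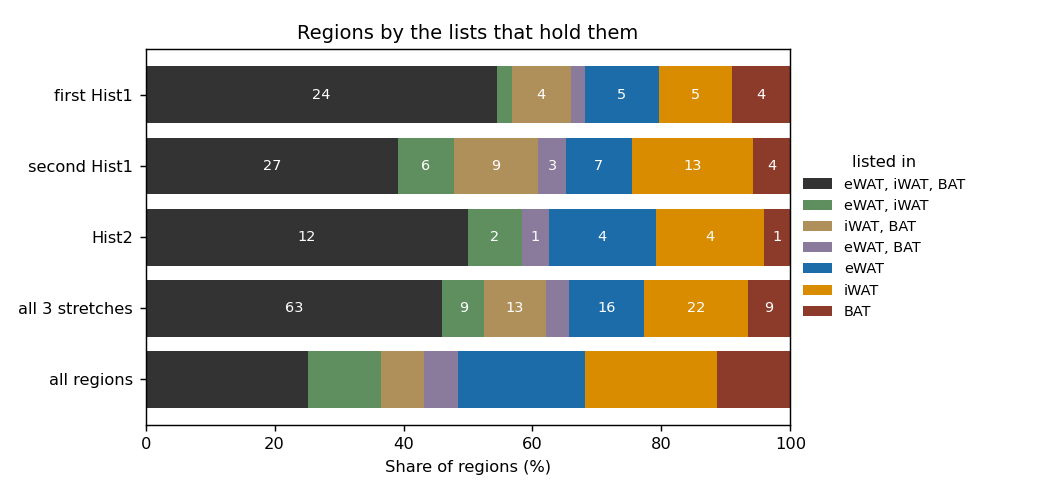
Bars give the share of regions (%) by the lists that hold them, for the 3 stretches, for the stretches together and for all regions; white numbers are counts of regions and are left out for narrow segments. The dark segment, regions in all 3 lists, makes up 46.0% of the histone cluster regions and 25.2% of all regions.

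Sites of the histone clusters held many tags. The normalised tag count is the authors' own value, relative to a library total that the lists do not state, so sites were ranked only within their list. Ranked by tag count, the top 25% of the eWAT list held 63 of the 93 cluster sites (67.7%, 57.3 to 77.1). In iWAT it held 70 of 107 (65.4%, 55.6 to 74.4) and in BAT 54 of 90 (60.0%, 49.1 to 70.2), against 25.0% of each list by construction. For eWAT, iWAT and BAT the median rank percentile, with 100 for the site with the most tags, was 88.8, 84.5 and 81.4. Behind these ranks stood a median of 31, 26 and 24 tags, against 16, 14 and 14 over the whole lists. In normalised tag counts the eWAT sites ran from 6.54 over a median of 18.4 to 55.9. The iWAT sites ran from 9.85 over 25.6 to 72.9, and the BAT sites from 7.71 over 20.6 to 61.7. Over the whole lists, sites in all 3 lists had medians of 12.5, 19.7 and 15.4, against 7.73, 10.8 and 10.3 at sites listed in no other depot. The stretches were singled out for common regions, and the part of that choice in the high ranks was not tested.

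By median percentile the Hist2 stretch ranked below both Hist1 stretches in each depot. The second Hist1 stretch had median percentiles of 92.3, 87.2 and 90.3 in eWAT, iWAT and BAT, and the first had 86.5, 85.2 and 77.4. The Hist2 stretch had 59.7, 66.7 and 67.7, close to the middle of the lists, with only 6 of 19, 8 of 18 and 5 of 14 sites in the top 25%. Hist2 tag counts ran from 6.54 to 29.1 in eWAT, 9.85 to 34.5 in iWAT and 7.71 to 30.0 in BAT.

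The strongest common regions of the clusters were near the top of every list. Ordered by the sum of the 3 rank percentiles, the first was on chromosome 13 at 23854316 to 23854556, near the far end of the second Hist1 stretch, and held 55.9, 72.9 and 56.5 normalised tags in the order eWAT, iWAT and BAT (94, 74 and 66 tags). Its percentiles were 99.9, 99.7 and 99.5, and the centres of its 3 sites lay within 19 bp of each other. The next, at 23524612 to 23524921, held 46.4, 69.9 and 48.8, and a neighbour at 23523463 to 23523704, 0.908 kb away, held 36.3, 54.2 and 38.5. Both were highest in iWAT on the authors' scale, as was the median over whole lists (9.52, 13.8 and 12.0).

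On the authors' scale the region at 23626862 to 23627104 was highest in BAT, with normalised tag counts of 42.2, 54.2 and 61.7 (71, 55 and 72 tags). The last of these is the highest BAT value of the clusters. Its percentiles were 99.7, 98.7 and 99.6, so by rank the region was not highest in BAT. It stood near the top of all 3 lists regardless of the scale. In the first Hist1 stretch the highest region, at 22032817 to 22033061, held 35.1, 51.2 and 39.4. It was followed by 21875374 to 21875659 with 36.9, 48.3 and 40.3 and by 21802631 to 21802855 with 26.8, 50.2 and 38.5. In the last of these the centres of the 3 sites coincided within 2 bp. The remaining regions among the 10 highest, all in the second Hist1 stretch, lay at 23635390 to 23635691 (32.1, 35.5 and 40.3), at 23648138 to 23648442 (23.2, 36.4 and 42.8) and at 23790220 to 23790577 (23.2, 44.3 and 31.7). All 10 regions had percentiles of at least 93.7 in each list.

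On chromosome 3 the highest region was at 96073175 to 96073707, with 25.6, 32.5 and 30.0 normalised tags in eWAT, iWAT and BAT and percentiles of 96.3, 91.7 and 93.1. A further region less than 1 kb before it, at 96072214 to 96072488, held 29.1, 27.6 and 27.4, and the region at 96067143 to 96067591 held 22.6, 34.5 and 29.1. With 96023399 to 96023635 (20.8, 29.6 and 29.1) and 96024855 to 96025218 (20.8, 30.5 and 20.6), these 5 were the Hist2 regions in the top 25% of every list. Over all stretches 36 of the 63 common regions were in the top 25% of every list (57.1%), against 26.2% of all common regions, with 14 of 24, 17 of 27 and 5 of 12 in the 3 stretches. The 3 centres of a common region were a median of 59 bp apart at most, against 73 bp over all common regions, and lay within 50 bp in 25 of 63 (39.7%), against 33.9%.

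To compare depots within common regions, the log2 ratio of the tag counts of 2 depots was taken and the median over all 24988 common regions with 1 site from each list was subtracted, which removes the unknown scale of the libraries. All 63 common regions of the clusters had 1 site from each list. None passed a 2-fold difference between any 2 depots, while of all common regions 3.82% did between eWAT and iWAT, 5.68% between BAT and iWAT and 5.17% between BAT and eWAT. Strong regions vary less: among common regions in the top 25% of every list the shares were 0.551%, 1.02% and 1.25%, and 36 of the 63 histone regions belonged to that class. The centred log2 ratios of the clusters ran from -0.84 to 0.80 for eWAT over iWAT, from -0.75 to 0.76 for BAT over iWAT and from -0.90 to 0.97 for BAT over eWAT. Their medians were 0.09 (95% interval over regions 0.01 to 0.19), 0.06 (-0.06 to 0.19) and -0.11 (-0.19 to 0.06). The 3 ratios share libraries and are not independent of one another. Each interval treats regions as independent, although neighbours are not, and covers the spread over regions, not the spread between cultures. Centred on the common regions in the top 25% of every list, the medians were 0.17 (0.10 to 0.28), 0.05 (-0.07 to 0.17) and -0.20 (-0.29 to -0.04). Without the 2 densest windows the medians were 0.02 (-0.09 to 0.17), -0.04 (-0.19 to 0.07) and -0.13 (-0.20 to 0.16). All 3 intervals then held 0, so none of the signs was settled. By stretch the eWAT over iWAT median was 0.06, 0.07 and 0.23 (the last over 12 regions of Hist2, -0.01 to 0.46).

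In most single regions the ratio did not exceed its counting error. An exact interval of the ratio from the tags excluded 0 in 2 of 63 regions for eWAT over iWAT, in none for BAT over iWAT and in 1 for BAT over eWAT. Over all 24988 common regions the interval excluded 0 in 4.93%, 6.78% and 6.84%, so such intervals were not more frequent in the histone regions. These 3 regions were chosen after their values were seen. At 23654273 to 23654569 the normalised tag counts in eWAT, iWAT and BAT were 13.7, 25.6 and 32.5 (23, 26 and 38 tags) and the centred log2 ratio of BAT over eWAT was 0.97 (0.19 to 1.79). At 22006537 to 22006835 they were 13.1, 35.5 and 24.8 (22, 36 and 29 tags) and the ratio of eWAT over iWAT was -0.84 (-1.67 to -0.03). At 23831698 to 23831961 they were 22.0, 52.2 and 30.8 (37, 53 and 36 tags) and the ratio of eWAT over iWAT was -0.64 (-1.29 to -0.01). The intervals cover counting error only and were not adjusted for the number of regions and pairs.

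**Figure D3:**
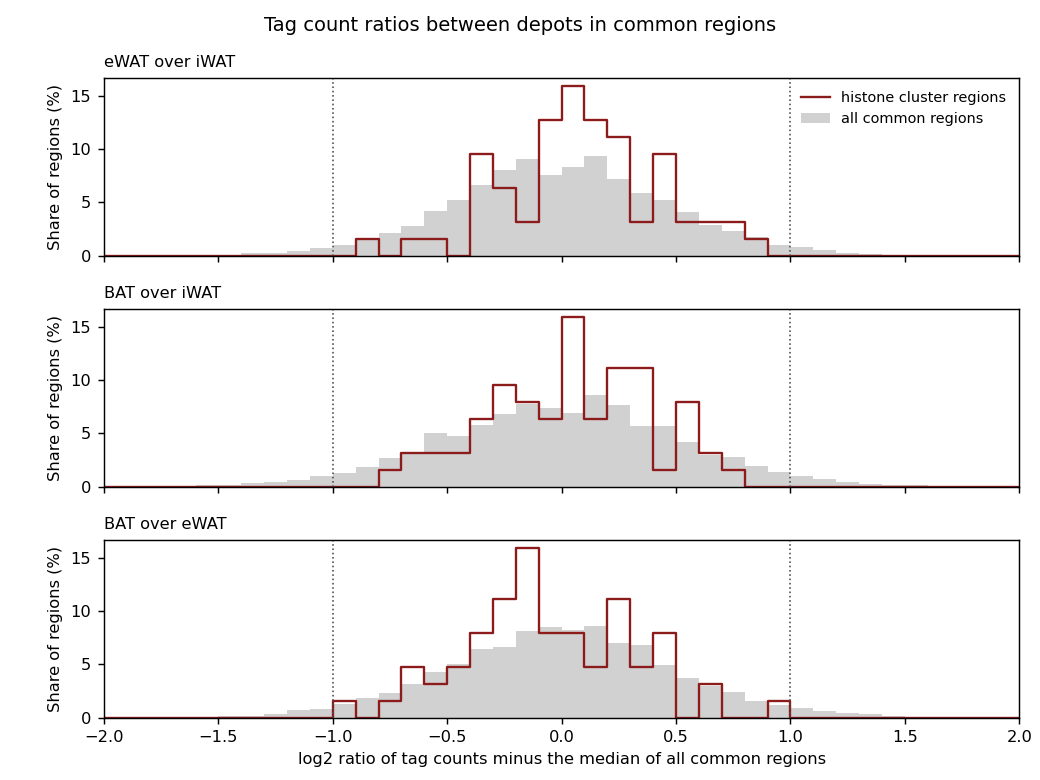
Grey bars give the share of all 24988 common regions (%) in steps of 0.1 of the centred log2 tag count ratio for each pair of depots, and the red line gives the same for the 63 histone cluster regions. Dotted lines mark 2-fold; the red line stays between them in all 3 panels, with its medians at 0.09, 0.06 and -0.11.

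By their contrast with the surroundings the histone sites ranked low. The authors' lists give for each site the fold of its tag density over the local surroundings, with a minimum of 4 in every list. Although rich in tags, the histone sites stood out little: the median fold was 6.46, 7.27 and 7.5 in the order eWAT, iWAT and BAT, against 7.46, 9.91 and 9.23 over the whole lists. Only 8 of 93, 10 of 107 and 7 of 90 sites (8.60%, 9.35% and 7.78%) were in the top 25% by fold, against 25.0%. Median percentiles by fold were 35.9, 26.5 and 32.5. Sites with a fold below 5, close to the limit of the lists, made up 26 of 93 in eWAT (28.0% against 13.5%), 23 of 107 in iWAT (21.5% against 5.88%) and 14 of 90 in BAT (15.6% against 6.77%). Among sites in the top 25% by tag count, 18 of 63 eWAT sites had a fold below 5, against 5.88% of all such sites, as did 10 of 70 in iWAT (3.25%) and 5 of 54 in BAT (3.88%). Neighbouring sites lie in each other's surroundings, and the part of site density in these folds was not tested.

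The second Hist1 stretch showed the lowest folds, with medians of 5.99, 6.83 and 6.96, and Hist2 the highest, with 6.95, 8.81 and 8.77. The strongest region of all, at 23854316 to 23854556, also stood out from its surroundings, by 14.7, 15.9 and 16.6 times in eWAT, iWAT and BAT, and its nearest region was 5.55 kb away. By contrast the next, at 23524612 to 23524921, had folds of 6.14, 7.27 and 6.72, and its neighbour at 23523463 to 23523704 had 5.17, 5.97 and 5.75. In iWAT and BAT the 2 highest folds at common regions belonged to regions with tag counts below the cluster medians and no near neighbour. The region at 23689733 to 23690027 stood 16.2, 25.8 and 18.5 times above its surroundings with 14.3, 16.7 and 13.7 normalised tags and no other region within 11.5 kb. The one at 23722462 to 23722742 stood 12.99, 26.03 and 18.6 times above with 11.3, 12.8 and 12.0, and its nearest region was 7.64 kb away. Of the sites in the top 25% by fold, 6 of 8 in eWAT, 8 of 10 in iWAT and 3 of 7 in BAT had no other region within 5 kb, against 67.8%, 70.9% and 65.8% of all sites in the top 25% by fold. The BAT share was below that of its list, but 7 sites are too few to resolve such a gap.

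**Figure D4:**
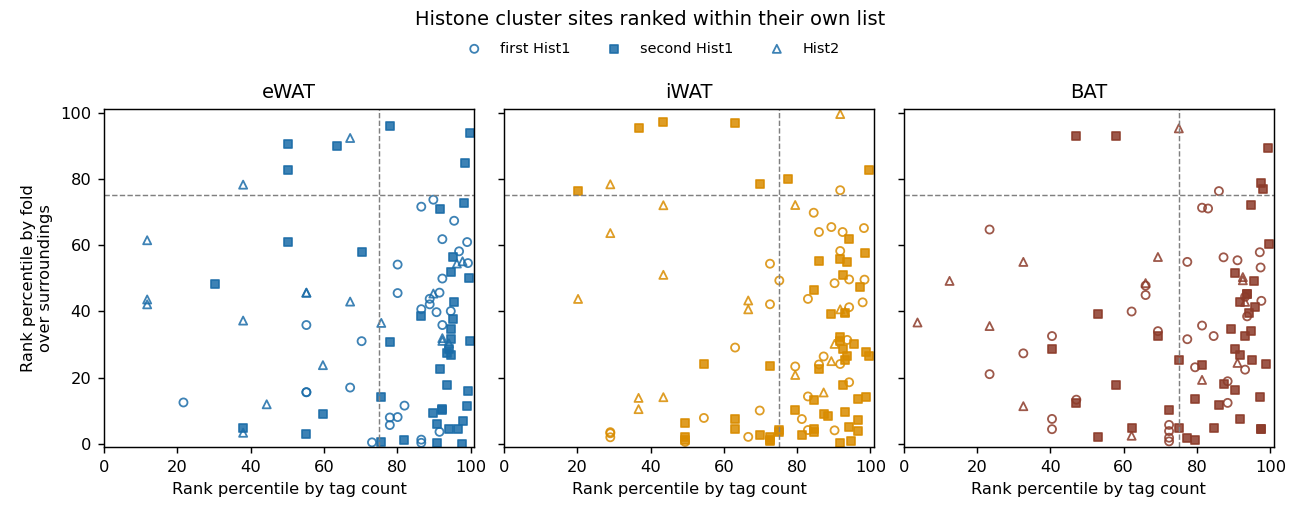
Each point is a histone cluster site, placed by its rank percentile by tag count (x axis) and by fold over surroundings (y axis) in its own list, with 1 panel per depot, symbols for the stretches and dashed lines at the top 25%. Points crowd to the right and below the upper dashed line: 63 eWAT, 70 iWAT and 54 BAT sites are in the top 25% by tag count but 8, 10 and 7 by fold.

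Folds below 5 were frequent among the single-depot sites of the clusters, with folds reaching 9.61 in eWAT, 14.7 in iWAT and 20.5 in BAT. Of the sites listed in no other depot, 8 of 16 in eWAT had a fold of at least 5 (against 80.4% of all such eWAT sites), as had 11 of 22 in iWAT (90.3%) and 4 of 9 in BAT (87.0%). Of the 63 common sites, 52, 58 and 60 had one, against 92.2%, 97.4% and 96.9% of all common sites. The median fold of the single-depot sites was 5.04, 5.03 and 4.75, and that of the common sites 6.55, 8.81 and 8.15. Single-depot sites had the lower fold over the whole lists too, with medians of 6.62, 8.59 and 7.66 against 8.58, 11.7 and 10.5 at common sites. Of the 74 regions not in all 3 lists, 31 (41.9%) had a site of each lacking depot within 1 kb, against 24.8% of all such regions. The part of site density in this share was not tested. By stretch these were 13 of 20, 15 of 42 and 3 of 12, the last of these near the share over all regions. A region missing from a list may still be open below the authors' limits, since tag counts outside listed sites were not at hand.

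Of the sites listed in a single depot, 7 of 16 in eWAT were in the top 25% of their list by tag count, against 6.61% of all single-depot eWAT sites. In iWAT they were 12 of 22 (7.33%) and in BAT 2 of 9 (8.38%). Among the strong eWAT sites of the clusters, single-depot sites made up 7 of 63 (11.1%, against 8.45% of all strong eWAT sites). In iWAT they were 12 of 70 (17.1% against 9.42%) and in BAT 2 of 54 (3.70% against 7.87%). These counts are small, and a difference between depots was not tested. None of these strong single-depot sites was in the Hist2 stretch. In BAT the site with the most tags was at 23610133 to 23610355, with 40.3 normalised tags (percentile 97.6) and a fold of 4.73, and an eWAT site with 33.9 normalised tags and a fold of 4.86 lay 183 bp away. The other BAT site, at 23517355 to 23517577, held 19.7 with a fold of 4.25. Both thus had folds under 5.

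In eWAT the site with the most tags was at 23713083 to 23713303, with 30.3 normalised tags (percentile 98.1) and a fold of 9.61. A BAT site with 28.3 lay 98 bp away, and an iWAT site 156 bp away. The site at 23538432 to 23538652 held 26.2 with a fold of 4.39 and had a BAT site at 348 bp. Those at 23592806 to 23593026 (22.6, fold 5.99), 22066854 to 22067074 (20.8, fold 7.44) and 22027384 to 22027604 (17.2, fold 4.03) had an iWAT site 102, 267 and 107 bp away. These 5 of the 7 eWAT sites thus each had a site of each other depot within 452 bp.

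Some of the iWAT sites had no site of another depot nearby. The site with the most tags, at 23608852 to 23609074, held 37.4 normalised tags (percentile 94.6) at a fold of 4.21, with an eWAT site 656 bp away. The site at 22114069 to 22114291 held 36.4 with a fold of 6.42, and sites of eWAT and BAT lay within 28 bp. In contrast, the site at 23623362 to 23623584 held 36.4 with a fold of 4.86 and its nearest other depot was BAT at 3294 bp, and the site at 22036602 to 22036824 held 32.5 with a fold of 7.02 and a BAT site at 3541 bp. The site at 23518448 to 23518670 held 32.5 at a fold of 4.06, with a BAT site at 871 bp.

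Among regions in exactly 2 lists, the Hist2 region at 96001286 to 96001528 had the highest fold of the clusters. The regions named in this paragraph were chosen after their values were seen. The Hist2 region held 32.5 normalised tags in iWAT at a fold of 39.3 and 11.9 in eWAT at a fold of 13.9. BAT listed its own site 88 bp away, with 18.0 normalised tags and a fold of 20.5, so all 3 depots had a site within this short distance. In the second Hist1 stretch 2 regions were in the top 25% of both white lists and absent from the BAT list. The first, 23542299 to 23542531, held 29.7 in eWAT and 42.4 in iWAT at folds of 4.57 and 5.16, with the nearest BAT site 2668 bp away. The other, 23609721 to 23609950, held 33.9 and 42.4 at folds of 4.86 and 4.70, with the single-depot BAT site described above 183 bp away. The same stretch held more regions in the top 25% of both iWAT and BAT and absent from the eWAT list. An example is 23529807 to 23530221, with 34.5 in iWAT and 33.4 in BAT. Others were in the top 25% of both eWAT and BAT and absent from the iWAT list, such as 23611096 to 23611321 (28.5 and 39.4).

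Sites of the clusters were somewhat less sharply centred than others in eWAT and iWAT. The focus ratio, a fraction that gauges how closely tags gather at the site's centre, had medians of 0.655, 0.676 and 0.705 in the order eWAT, iWAT and BAT, against 0.688, 0.704 and 0.704. The clonal fold had medians of 0.93, 0.95 and 0.95 against 0.97 in each list, with lowest values of 0.82, 0.85 and 0.86. The libraries differed in depth: if all were scaled to the same total, eWAT was 1.66 and BAT 1.15 times as deep as iWAT. The part of depth in the comparisons of depots was not tested.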

How the data were processed

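DNase-seq, which marks open chromatin by its sensitivity to DNase I, was analysed from 1 deposited site list per depot in build mm9. The submitters' processing notes name STAR and HOMER, with no version or role. Per the file headers, each deposited list gives a normalised tag count (a signal scaled to a library total not given in the sources used here), a peak score, a fold ratio of tag density over the local surroundings with its p-value, a clonal fold ratio and a focus ratio, which is a fraction. The deposited p-values were not used in any comparison. The smallest fold in each list was 4.

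Python 3.11.15, numpy 2.4.6, pandas 2.3.3, scipy 1.17.1 and matplotlib 3.10.9 were used. Tag counts were whole multiples of 0.595 in eWAT, 0.985 in iWAT and 0.857 in BAT for at least 99.9984% of sites (within the rounding of the printed value, 0.05, or 0.005 below 10), and these steps gave the tags behind each value. Sites of all lists were merged into regions at an overlap of at least 1 bp. Ranks are percentiles within a list. Ratios between depots were centred on all common regions, and 2-fold was the limit. The 95% interval of a share is exact (Clopper-Pearson) and holds counting error alone. With 1 library per depot no test between depots was made. Merging, the classes of regions and the centred ratios were checked on simulated lists. In these lists neighbouring regions lay too far apart to merge, so the merging of close sites was not checked.

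The members and lists were chosen with earlier results of these data known. Named regions were the 10 common regions with the highest summed percentiles, the highest of each stretch, any past 2-fold, and up to 5 single-depot sites per depot in the top 25% of their list. The alternatives were another overlap or merging distance, lists of equal length, a fold of at least 6, the top 50% of each list, ranking by score or fold, ratios of scores, another centring, leaving out the densest windows and widening the stretches by 50 kb. Gene names, gene order and promoters came from RefSeq GRCm38.p6 tables, whose coordinates were not combined with the sites. Sequences of the sites are not reported here.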

Additional observations from a re-analysis of the deposited data

How the results depend on the processing

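Of 64 values recomputed under the alternatives, 52 stayed within their limits and 12 moved. The median log2 ratio of BAT over iWAT, whose interval held 0, went from 0.06 to -0.04 without the densest windows. That of eWAT over iWAT went from 0.09 to 0.02, and its interval then held 0 (-0.09 to 0.17). Requiring sites to overlap by 50% of the shorter lowered the share of histone cluster regions in all 3 lists from 46.0% to 31.6% (18.1% of all regions), and merging sites within 200 bp raised it to 56.8% (34.6% of all regions). A minimum fold over surroundings of 6 left 56 of 93 eWAT, 67 of 107 iWAT and 65 of 90 BAT sites, so that BAT then had more sites than eWAT. Ranking by fold in place of tag count turned the sites from above to below the middle of their lists: it lowered the share of sites in the top 25% to 8.60%, 9.35% and 7.78% in the order eWAT, iWAT and BAT, and their median percentile to 35.9, 26.5 and 32.5. Centring the ratios on common regions in the top 25% of every list moved the median log2 ratio of BAT over eWAT from -0.11 to -0.20 and put 1 region past 2-fold in place of 0. No paired analysis was possible because each depot had 1 library, and for the same reason no library could be left out. Depth limits single regions: a median site held 24 to 31 tags, and the list limits cannot tell a weak site from an absent one.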
